A study of Mus musculus with 74 samples.

Results

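The contacts described here join a gene promoter to DNA on the same chromosome that lies more than 1 Mb away. They were taken from 3 deposited lists of promoter capture Hi-C interactions, by asking that the midpoints of the 2 joined restriction fragments be over 1000000 bp apart. Of 365959 listed interactions, 19995 met this rule: 1284 in the progenitor list, 8055 in the control erythroid list and 10656 in the Stag2-knockdown erythroid list. Because some pairs of fragments are in more than 1 list, the 19995 lines hold 17967 distinct pairs. The nearest contact inside the rule spanned 1000049 bp and the farthest one outside it spanned 999994 bp. Between 900 kb and 1 Mb the 3 lists held 388, 910 and 1334 interactions, and between 1 and 1.1 Mb they held 287, 780 and 1026, with median scores of 6.39, 6.11 and 6.3 below the threshold and 6.5, 6.21 and 6.44 above it.

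The study followed cohesin and its STAG2 subunit in HPC-7, a mouse blood progenitor line that depends on stem cell factor (SCF) for growth. The list called HPC came from cells that had not been transduced, grown with SCF at 100 ng/ul. Ery Luc and Ery shStag2 came from HPC-7 cells carrying a doxycycline-inducible short hairpin against Luc (the control) or Stag2, grown with SCF at 20 ng/ul and erythropoietin (EPO) at 4 U/l. Doxycycline was given for 72 h, except that 1 Ery Luc library is labelled 73 h. All 6 libraries carry the same label of cell type, stem and progenitor cells, so "Ery" names the growth condition. Each list pools 2 libraries. There is therefore no replicate list, no test was possible between conditions, and the differences below compare 3 lists. HPC differs from Ery Luc in transduction, doxycycline, SCF and EPO at once, and these cannot be told apart. The read depth behind each list is unknown, and neither the knockdown of Stag2 nor the cells' markers were checked here.

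In promoter capture Hi-C, chromatin is crosslinked, cut here with HindIII and religated, and the ligation products that hold a promoter are pulled out with baits. The fragment that was pulled out is called the captured fragment and its partner the other end. Each listed interaction carries the authors' score, which was 5 or more throughout, and a higher score is read here as a stronger call. Most enhancers act within a megabase of their promoter. Cohesin forms loops by extruding DNA until it meets CTCF, and it can also pull apart contacts between compartments of the nucleus, in which active or silent regions of one chromosome gather over long distances. Active histone genes gather in a nuclear body of their own, and Myc is a known case of a gene with remote enhancers.

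The promoters at the ends of the strongest and most numerous contacts are shown first, because the same few fragments return in every list. A RefSeq promoter window (GRCm38.p6, from 250 bases before to 50 after the gene start) was found for 19 of the 28 captured fragments named below. The first 5 windows belong to replication-dependent histone genes on chromosome 13: H4c9 (chr13:22041313-22041612, minus strand) and H2ac11 (chr13:22042900-22043199, minus strand) share 1 captured fragment, H4c6 (chr13:23551619-23551918, minus strand) and H2ac8 (chr13:23571171-23571470, minus strand) are among its strongest partners, and H2ac13 (chr13:21716162-21716461, plus strand) is a further hub. Igfbp3 (chr11:7213874-7214173, minus strand) lies on a chromosome 11 fragment whose far contacts were seen in every list, and Chordc1 (chr9:18292017-18292316, plus strand) on the fragment with the second largest excess of far contacts in Ery shStag2. All are written 5′ to 3′ on the strand of the gene. Capitals mark every match, on either strand, to the TATA box TATAAA, the CCAAT box (spelled CCAAT), the octamer with the letters ATTTGCAT, a GATA site written as AGATAA, an ETS site written as CCGGAAG, or the core of a CTCF site with the letters CNAGGNGGC.
H4c9: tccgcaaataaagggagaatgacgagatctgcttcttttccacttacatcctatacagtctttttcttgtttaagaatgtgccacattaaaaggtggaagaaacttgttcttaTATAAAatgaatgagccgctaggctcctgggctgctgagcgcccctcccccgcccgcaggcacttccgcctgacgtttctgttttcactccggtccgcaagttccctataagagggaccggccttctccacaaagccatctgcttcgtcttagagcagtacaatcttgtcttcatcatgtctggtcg
H2ac11: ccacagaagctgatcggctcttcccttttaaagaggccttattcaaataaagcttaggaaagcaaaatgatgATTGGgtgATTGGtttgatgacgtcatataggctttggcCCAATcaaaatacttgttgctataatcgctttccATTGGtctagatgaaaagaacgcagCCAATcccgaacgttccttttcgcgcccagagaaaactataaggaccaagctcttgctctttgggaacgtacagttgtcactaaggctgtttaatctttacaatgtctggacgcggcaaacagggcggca
H4c6: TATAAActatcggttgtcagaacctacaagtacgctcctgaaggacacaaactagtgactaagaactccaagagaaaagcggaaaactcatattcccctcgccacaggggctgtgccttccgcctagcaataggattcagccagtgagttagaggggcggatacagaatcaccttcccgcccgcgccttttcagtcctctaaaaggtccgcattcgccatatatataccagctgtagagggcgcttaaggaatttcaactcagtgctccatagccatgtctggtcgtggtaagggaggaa
H2ac8: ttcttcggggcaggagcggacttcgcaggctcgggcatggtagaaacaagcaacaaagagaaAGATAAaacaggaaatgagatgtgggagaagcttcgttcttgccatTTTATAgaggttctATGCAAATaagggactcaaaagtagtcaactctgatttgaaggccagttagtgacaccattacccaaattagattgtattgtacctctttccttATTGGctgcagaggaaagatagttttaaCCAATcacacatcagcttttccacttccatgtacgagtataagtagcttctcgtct
H2ac13: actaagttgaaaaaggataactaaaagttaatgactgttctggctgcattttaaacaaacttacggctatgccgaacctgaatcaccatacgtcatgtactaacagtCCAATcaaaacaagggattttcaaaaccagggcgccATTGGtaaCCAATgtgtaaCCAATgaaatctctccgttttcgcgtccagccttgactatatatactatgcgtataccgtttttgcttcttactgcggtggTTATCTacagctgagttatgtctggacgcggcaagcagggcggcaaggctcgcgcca
Igfbp3: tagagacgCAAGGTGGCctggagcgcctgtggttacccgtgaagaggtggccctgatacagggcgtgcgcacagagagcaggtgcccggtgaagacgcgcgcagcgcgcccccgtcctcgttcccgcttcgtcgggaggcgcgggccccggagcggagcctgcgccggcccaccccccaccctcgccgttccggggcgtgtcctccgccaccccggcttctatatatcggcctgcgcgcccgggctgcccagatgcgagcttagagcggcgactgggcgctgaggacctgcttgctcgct
Chordc1: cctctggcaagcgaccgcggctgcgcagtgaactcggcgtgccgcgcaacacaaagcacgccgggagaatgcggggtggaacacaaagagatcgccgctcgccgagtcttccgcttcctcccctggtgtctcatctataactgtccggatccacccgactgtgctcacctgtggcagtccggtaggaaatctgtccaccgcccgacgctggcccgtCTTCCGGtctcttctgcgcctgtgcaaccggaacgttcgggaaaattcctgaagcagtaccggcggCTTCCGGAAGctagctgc

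The histone windows differed in which of these letters they held. TATAAA was found in the windows of H4c9, H4c6 and H2ac8 and CCAAT in neither of the H4 windows. Counted from the gene start, TATAAA lay at -137 for H4c9 and -250 for H4c6. For H2ac8 it lay at -142 on the opposite strand. CCAAT or its reverse was found 5 times in the H2ac11 window and 4 times in that of H2ac13. The octamer, which is known from H2B promoters, was found once in that of H2ac8, at -128 on the opposite strand. Matches on either strand and at any position were counted, and whether they work as promoter elements was not tested. Among 29 histone promoters on captured fragments with 20 or more contacts over 1 Mb summed over the lists, 68.97% held TATAAA and 79.31% held CCAAT, against 13.62% and 37.41% of all 32851 promoters in the table. Of all 63 histone promoters in the table, 53.97% and 82.54% did. None of the 29 held the ETS or the CTCF letters. The 91 promoters of other genes on such fragments held the ETS letters in 23.08% and the CTCF core in 10.99%, against 13.03% and 10.96% of the 17724 promoters on any captured fragment. The Chordc1 window held 3 ETS matches, of which 2 overlap, and the Igfbp3 window 1 CTCF core. No window printed here other than these 2 held either motif, which says only that the letters are not in these 300 bases.

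Contacts over 1 Mb made up 1.15% of the 111657 within-chromosome interactions of HPC, 7.05% of the 114254 of Ery Luc and 8.81% of the 120982 of Ery shStag2. The exact 95% Clopper-Pearson intervals were 1.09 to 1.21%, 6.90 to 7.20% and 8.65 to 8.97%, and cover counting error only. The 3 lists are nearly equal in length, and the order of these shares was the same under each of 6 other settings. Among captured fragments, 583 of 14671 had such a contact in HPC, 4439 of 18164 in Ery Luc and 4840 of 18609 in Ery shStag2.

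HPC contacts mostly spanned 1 to 2 Mb, while many of those in the erythroid lists exceeded 10 Mb. The greatest distance was similar, at 168.1 Mb in HPC, 169.4 Mb in Ery Luc and 174 Mb in Ery shStag2. The median distance was 1.39 Mb in HPC, 2.17 Mb in Ery Luc and 1.91 Mb in Ery shStag2, and 90.2% of HPC contacts, 47.1% of Ery Luc contacts and 52.7% of Ery shStag2 contacts spanned 1 to 2 Mb. Only 38 contacts of HPC exceeded 10 Mb, against 2781 of Ery Luc and 2891 of Ery shStag2. Read by class, Ery Luc held 3.28 times as many contacts as HPC at 1 to 2 Mb, 13.1 times at 2 to 5 Mb, 122 times at 5 to 10 Mb, where HPC had 3, and 73.2 times over 10 Mb. Between Ery Luc and Ery shStag2 the classes under 5 Mb differed most. The ratio was 1.48-fold at 1 to 2 Mb (5618 against 3798), 1.56-fold at 2 to 5 Mb (1730 against 1110), 1.14-fold at 5 to 10 Mb (417 against 366) and 1.04-fold over 10 Mb. As a share of all within-chromosome interactions, contacts over 10 Mb were 2.43% of Ery Luc and 2.39% of Ery shStag2.

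**Figure D1:**
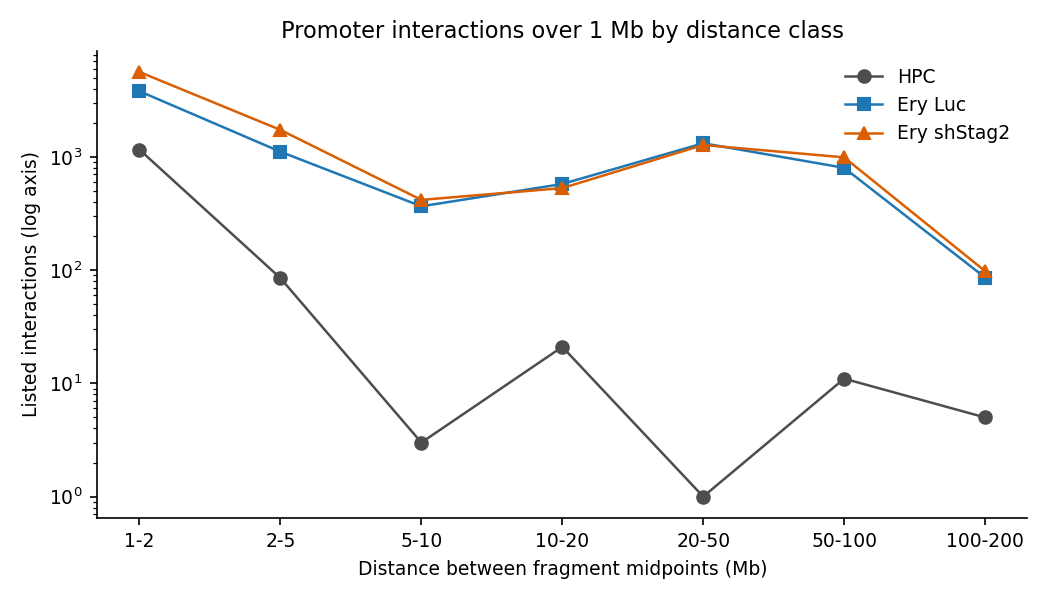
Number of listed interactions over 1 Mb (log axis) in each class of distance between fragment midpoints (Mb, classes of unequal width), 1 line for each list. HPC drops from 1158 at 1 to 2 Mb to 3 at 5 to 10 Mb, while Ery Luc and Ery shStag2 have a second maximum of 1319 and 1273 at 20 to 50 Mb.

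The scores were low and had a long upper tail. The median score was 6.54 in HPC, 6.09 in Ery Luc and 6.16 in Ery shStag2, beside 6.55, 6.39 and 6.43 for interactions of 50 kb to 1 Mb. Scores of 10 or more were held by 17.7% of HPC contacts, 8.83% of Ery Luc contacts and 10.9% of Ery shStag2 contacts. For interactions of 50 kb to 1 Mb the shares were 14.6%, 12.3% and 12.8%. The share over 1 Mb was thus the higher in HPC and the lower in both erythroid lists. A score of 20 or more was given to 41, 108 and 206 contacts. At 2 to 5 Mb, 64 of the Ery Luc and 185 of the Ery shStag2 contacts scored 10 or more, so that the excess of Ery shStag2 in this class was also present among its strongest calls. Over 10 Mb the numbers were 13, 106 and 85.

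Captured fragments that the HPC list lacks altogether were rich in far contacts. In Ery Luc, 3298 captured fragments were not in the HPC list, and 23.3% of their 7194 within-chromosome interactions were over 1 Mb, against 5.96% for the 12972 fragments that HPC also held. In Ery shStag2 the shares were 26.7% and 7.51%. The median fragment of the first kind had 1 interaction in either list and that of the second kind had 5. Fragments listed in all 3 conditions gave shares over 1 Mb of 5.89% in Ery Luc and 7.44% in Ery shStag2, so the difference from HPC was smaller but of the same direction on a common set.

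Far contacts were seldom found again as the same pair of fragments. Of the 17967 pairs, 427 (2.38%) were in all 3 lists, 851 in both erythroid lists only, 224 in HPC and Ery shStag2 only and 99 in HPC and Ery Luc only. The remaining pairs stood in 1 list, 534 in HPC, 6678 in Ery Luc and 9154 in Ery shStag2. The 427 pairs were the strongest, with median scores of 8.75 for HPC, 11.5 for Ery Luc and 14.1 for Ery shStag2, against 5.87, 5.94 and 6.01 for pairs in 1 list. Chromosome 13 supplied 34.7% of them and chromosome 6 a further 14.1%.

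The HPC contacts were found again more often than those of the erythroid lists. Ery Luc held 41.0% of them (95% interval 38.3 to 43.7%) and Ery shStag2 held 50.7% (47.9 to 53.5%). These shares were close to the 46.9% and 46.7% of HPC interactions of 50 kb to 1 Mb. They were above the 37.9% and 42.85% of HPC interactions of 500 kb to 1 Mb, the class next to the threshold. Of the Ery Luc contacts, 15.9% (15.1 to 16.7%) were in Ery shStag2, against 49.2% of Ery Luc interactions of 50 kb to 1 Mb. In the class of 500 kb to 1 Mb the share was already down to 34.03%. Of the Ery shStag2 contacts, 12.0% (11.4 to 12.6%) were in Ery Luc, against 26.92% of Ery shStag2 interactions of 500 kb to 1 Mb. For the erythroid lists distance went with this share. HPC contacts were mostly of 1 to 2 Mb, and Ery Luc held 42.0% of the HPC contacts in that class. Ery shStag2 held 28.9% of the Ery Luc contacts of 1 to 2 Mb, 10.9% of those of 2 to 5 Mb, 1.91% of those of 5 to 10 Mb and 1.83% of those over 10 Mb. Score did too, with 7.15% found at scores of 5 to 6 and 94.4% at 20 or more.

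A looser match raised these shares, though few of the farthest erythroid contacts were found even so. When both ends could lie within 25 kb of a listed pair, Ery shStag2 held 63.4% of the Ery Luc contacts of 1 to 2 Mb but 6.69% (5.79 to 7.68%) of those over 10 Mb. Over all distances this looser share was 37.0% for Ery Luc contacts in Ery shStag2 and 78.8% for HPC contacts in Ery Luc. Of the 38 HPC contacts over 10 Mb, 42.1% were in Ery Luc as the identical pair and 89.5% (75.2 to 97.1%) were there within 25 kb. The far erythroid contacts were also scattered: 81.7% of those over 10 Mb in Ery Luc, and 81.7% in Ery shStag2, were alone in their pair of 1 Mb windows, against 13.2% of the 38 in HPC.

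**Figure D2:**
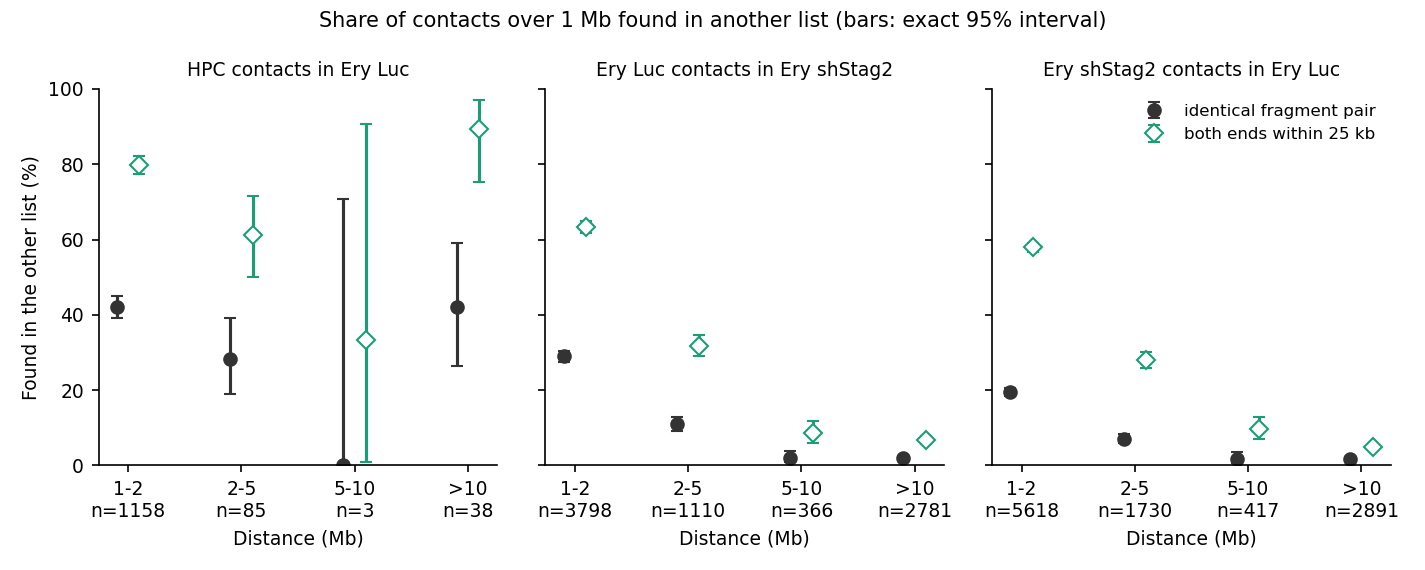
Share of contacts over 1 Mb (%) of 1 list found in another, by distance (Mb), as the identical fragment pair (filled circles) or with both ends within 25 kb (open diamonds), with exact 95% intervals and the number of contacts (n) under each class. In the 2 erythroid panels the shares fall from 28.9% and 19.6% of identical pairs at 1 to 2 Mb to under 2% over 10 Mb.

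The other ends of far contacts lay in gene-poorer surroundings than those of nearer ones. The other ends of interactions of 50 kb to 1 Mb had a median of 17, 17 and 16 protein-coding genes within 500 kb in HPC, Ery Luc and Ery shStag2. For contacts of 1 to 5 Mb the medians were 13, 11 and 9, and over 10 Mb they were 8.5, 8 and 8. The captured ends were in gene-poorer surroundings at 1 to 5 Mb as well. Their medians were 14, 12 and 10, against 17, 17 and 16 for interactions of 50 kb to 1 Mb. Over 10 Mb the captured ends had medians of 21, 12 and 12. Contacts of 1 to 2 Mb often jumped over clusters of smell and pheromone receptor genes, which are known to be silent in blood cells. At least 5 such genes (Olfr, Vmn1r or Vmn2r) lay between the ends of 32.0% of HPC, 27.1% of Ery Luc and 24.2% of Ery shStag2 contacts, against 8.73% of the 1.5 Mb windows beside all captured fragments. The contacts in question number 370, 1031 and 1357. Chromosome 13, with its histone locus, raised these shares: without it, a setting chosen after seeing the data, they were 17.7% (95% interval 15.3 to 20.4%), 18.5% (17.1 to 19.9%) and 16.4% (15.3 to 17.4%), against 8.72% of the windows, and the order of the lists was lost. Contacts share fragments and regions, so these counts are not independent.

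The contacts gathered in a few regions. Chromosome 13 held 254, 701 and 1003 contacts over 1 Mb in HPC, Ery Luc and Ery shStag2, or 5.87%, 14.5% and 18.8% of its within-chromosome interactions, the highest share of any chromosome in each list. Chromosome 6 had the second highest share in each list, with 198, 589 and 857 contacts, or 3.96%, 11.2% and 14.6%. By number alone, chromosome 7 led both erythroid lists with 872 and 1018. Chromosome 11 was one where Ery Luc and Ery shStag2 differed little, with 451 and 468 contacts and shares of 4.67% and 4.61%. The 10 captured fragments with most contacts took part in 21.3% of the HPC contacts, but in 5.18% of those of Ery Luc and 5.38% of those of Ery shStag2. At the other extreme, 67.7%, 67.2% and 60.3% of the fragments with any contact over 1 Mb had exactly 1. Fragments with 10 or more numbered 24, 81 and 153.

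The histone locus on chromosome 13 held the pair of 1 Mb windows with most contacts in both erythroid lists. In HPC a pair on chromosome 6, described below, led with 135. By single fragments, others led each list, with 48, 59 and 81 contacts in HPC, Ery Luc and Ery shStag2. Replication-dependent histone genes, which supply histones to replicating DNA, lie there in 2 blocks, with vomeronasal receptor genes between them. Contacts between the windows at 21 and 23 Mb numbered 101 in HPC, 301 in Ery Luc and 421 in Ery shStag2, and 36 receptor genes lay between the median ends. Contacts between 22 and 23 Mb numbered 114, 178 and 201. The fragment with H2ac11 and H4c9 (chr13:22040810-22043145) had 46, 58 and 64 contacts over 1 Mb, of which 41 were the same in all 3 lists. Its partner at H2ac8 was scored 63.2, 71.6 and 70.5, that at H4c6 42.7, 73.6 and 82.5, and that at H3c6 21.1, 31.2 and 77.3.

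The other histone fragments with most contacts also had fewest in HPC and most in Ery shStag2. H2ac13 with H2bc13 had 21, 41 and 55 contacts, H1f5 with H3c11 18, 36 and 48, H2ac10 with H3c8 and H4c8 19, 34 and 48, H2ac15 with H2bc15 10, 33 and 40, and H2ac8 16, 33 and 39. Not every histone gene followed this order: H4c6 had 14, 33 and 31 contacts over 1 Mb, H2bc9 and H3c7 each 2, 9 and 8, and H4c2 7, 16 and 16. The contact of H2ac4 with the H2ac13 fragment was not listed in HPC and had a score of 41.4 in the control erythroid list and 31.6 with Stag2 knockdown. Contacts with a histone gene at both ends numbered 72, 127 and 149, with median scores of 9.37, 12.6 and 14.2. Those with a histone gene at 1 end numbered 90, 250 and 356, with median scores of 10.3, 7.93 and 8.06. Histone genes of 1 type have near-identical coding sequences, and how reads that match several of them were handled is not stated for these lists.

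On chromosome 6 the far contacts crossed the natural killer receptor genes. Windows at 129 and 131 Mb were joined 135 times in HPC, 190 times in Ery Luc and 339 times in Ery shStag2. Between the median ends of these contacts start 27 protein-coding genes, of which 19 are lectin-like Klr receptors known from natural killer cells. The captured fragments with most contacts were at the distal side. One lies in Styk1, a kinase-like gene (chr6:131340997-131355093; 47, 47 and 78 contacts), one inside Ybx3, a cold-shock RNA and DNA binding protein (chr6:131375361-131380865; 48, 42 and 81), and one at the Ybx3 start (chr6:131387369-131389336; 11, 43 and 60). A fragment inside Klre1 (chr6:129573276-129578726) on the proximal side had 20, 13 and 31 contacts, all of them in the 131 Mb window.

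The number was thus lower in Ery Luc than in HPC for the fragments inside Ybx3 and Klre1, equal for Styk1, and highest in Ery shStag2 for each of the 4. The best scored contact of this region joined Styk1 to Klre1 over 1.78 Mb, with scores of 16.6, 22.9 and 93.8. A neighbouring pair of captured fragments, Styk1 and the Klre1 fragment above, had 32.0, 33.6 and 60.7.

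**Figure D3:**
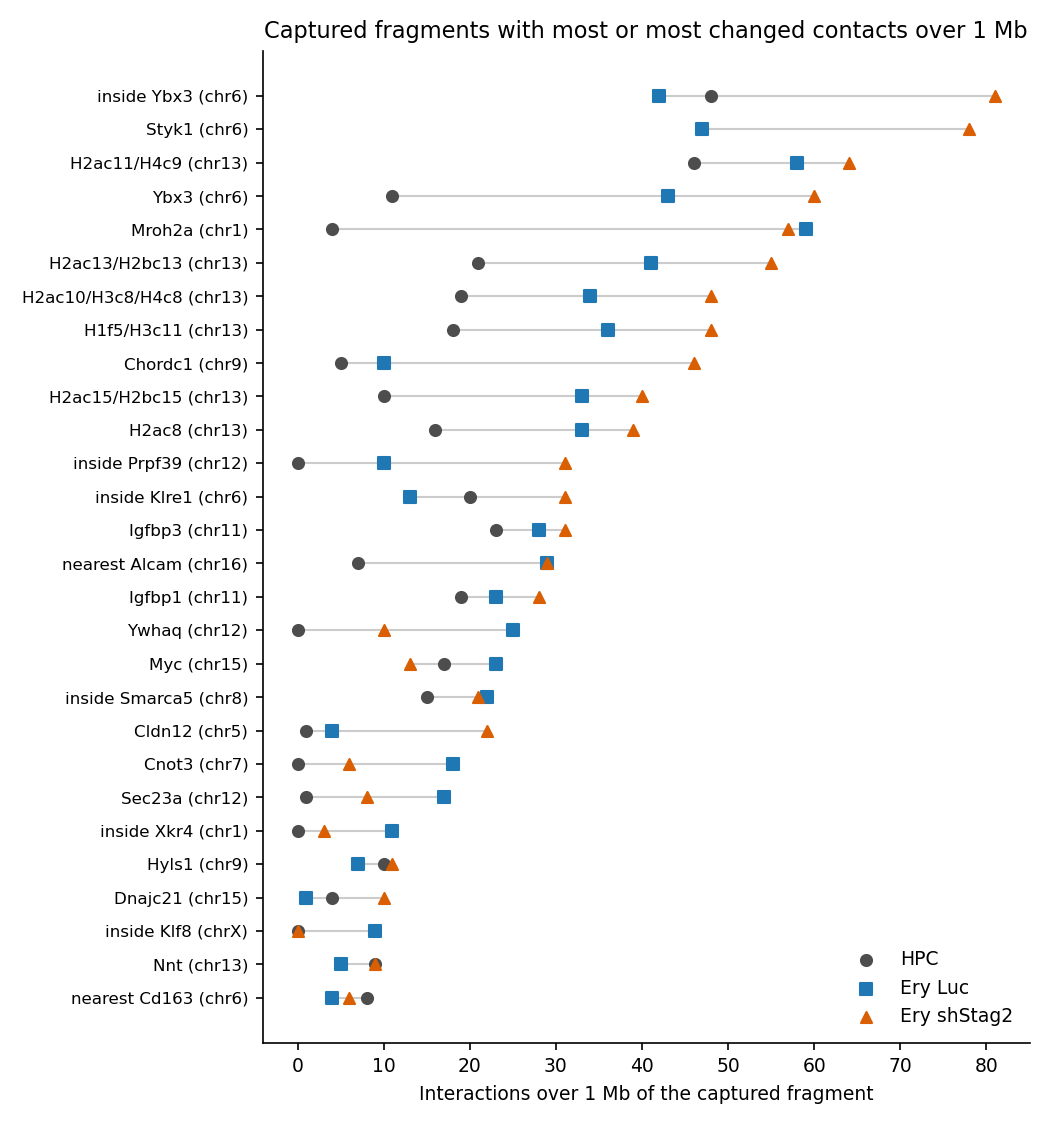
Interactions over 1 Mb of each captured fragment with most contacts, most contacts in all lists or the largest differences between lists, plus Myc; each symbol is 1 list, and fragments without a gene start or end are named by the gene they lie in or the nearest gene. The chromosome 6 fragments in Styk1 and inside Ybx3 reach 78 and 81 in Ery shStag2, and the Myc fragment is lowest there with 13.

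Some other fragments had many far contacts in each list, with the fewest in HPC. The Igfbp3 fragment (chr11:7212991-7216491) had 23, 28 and 31, with 17 in all lists, and Igfbp1 beside it (chr11:7196637-7198971) had 19, 23 and 28. Both genes code for secreted binders of insulin-like growth factors, and all 82 listed contacts of Igfbp3 and 69 of the 70 of Igfbp1 ended in the 8 Mb window, where the nearest gene to the best partners is Tns3. In HPC, all 23 within-chromosome interactions of the Igfbp3 fragment were of this kind. A fragment inside Smarca5, a chromatin remodelling ATPase (chr8:80719002-80723798), had 15, 22 and 21 contacts, and all 15 of HPC were in the other lists. Its best partner in HPC and Ery shStag2 was in Abce1, a ribosome recycling factor, at 1.03 Mb with scores of 24.6, 21.3 and 31.7. In Ery Luc the best score of the fragment was 25.1, with another partner.

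The farthest strong contacts were on chromosome 1. Cd244a, a receptor of natural killer cells, was joined over 168.1 Mb to a fragment inside Xkr4, with scores of 26.0, 140.8 and 139.2, and the latter 2 were the highest of their lists at any distance over 1 Mb. Itln1, a lectin gene beside Cd244a, was joined to the same Xkr4 fragment with scores of 35.7, 26.7 and 35.5. In Ery Luc the fragments of Slamf6 and Slamf7 were joined to it too, with scores of 20.6 and 5.39. The Slamf7 contact was also listed in Ery shStag2, with a score of 5.74, and the Slamf6 contact was not. The highest scores of interactions of 50 kb to 1 Mb were 63.8, 50.8 and 53.5. Whether the reads behind these Xkr4 contacts were placed correctly was not tested, so the contacts are uncertain. Mroh2a (chr1:88226925-88229010) had 4 contacts over 1 Mb in HPC, 59 in Ery Luc and 57 in Ery shStag2, which were 59 of its 63 and 57 of its 58 within-chromosome interactions. Of these 120 contacts, 73 ended in the 3 Mb window, where Xkr4 lies, and none of the pairs was in all 3 lists. The windows at 3 and 88 Mb were joined 8, 66 and 42 times. On chromosome 16, a captured fragment with no protein-coding gene nearer than Alcam at 491 kb (chr16:52944502-52951603) had 7, 29 and 29 contacts, 63 of 65 in the 39 Mb window about 13.2 Mb away. The single farthest contact of the series joined the fragment of Gpatch2 and Spata17 to Ncoa2 over 174 Mb, was listed in Ery shStag2 alone and was scored 5.56.

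Mptx1 and Mptx2, a pair of pentraxin genes on chromosome 1, were joined to each other over 1.05 Mb with scores of 49.0, 80.0 and 34.8. They are paralogs, so reads from one may have been placed on the other, and this contact is uncertain for that reason.

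Pairs of 1 Mb windows gave the same picture for the series as a whole. There were 63 pairs with 20 or more contacts in any list, and 56 of them had at least 1 in HPC. Ery Luc had more contacts than HPC in all 63 and Ery shStag2 had more than Ery Luc in 52, though pairs chosen by a high count in any list lean towards the longest list. At least 5 receptor genes lay between the ends in 14 pairs. After the histone and Klr regions, the most contacts were on chromosome 7 at 102 and 104 Mb (4, 68 and 106), across 80 olfactory receptor genes, and at 102 and 103 Mb (7, 53 and 84), across 61. Chromosome 11 at 73 and 74 Mb had 38, 67 and 81 across 30 receptor genes, chromosome 4 at 41 and 42 Mb 8, 61 and 77 with none, and chromosome 11 at 7 and 8 Mb, the Igfbp region, 44, 64 and 71.

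**Figure D4:**
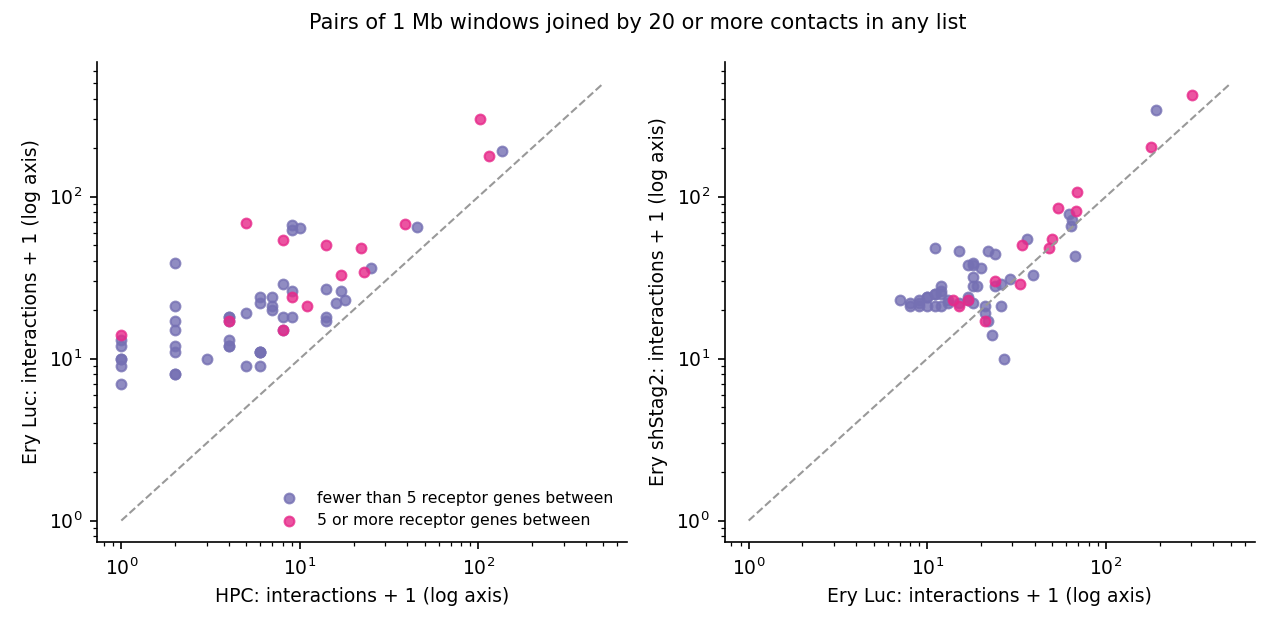
Interactions joining each of 63 pairs of 1 Mb windows (log axes, count plus 1), HPC against Ery Luc on the left and Ery Luc against Ery shStag2 on the right; colour marks pairs with 5 or more olfactory or vomeronasal receptor genes between them and the dashed line marks equal counts. All 63 points lie above the line on the left and 52 on the right.

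Fragments that were not the captured fragment of any listed interaction could also be shared partners. Whether baits were made against them was not checked. The fragment chr13:22038205-22040809, 0.151 kb from H4c9, met 11 captured fragments over 1 Mb in each of the 3 lists. Its neighbour chr13:22036984-22037905, 0.664 kb from H2bc12, met 8, 12 and 12, and chr11:74367477-74372289, 1.87 kb from the receptor gene Olfr412, met 7, 10 and 11. The widest spread was at chr7:38177749-38180534, 2.68 kb from 1600014C10Rik, which met 4 captured fragments in HPC, 22 in Ery Luc and 17 in Ery shStag2.

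Between HPC and Ery Luc nearly every difference ran towards more far contacts in Ery Luc. Counted per gene, over all captured fragments that hold the gene's start or end, 4725 genes had a contact over 1 Mb in either list. Of these, 1473 (31.2%) had at least 2 more in Ery Luc and 20 (0.423%) at least 2 fewer. With contacts of up to 10 Mb alone, 913 genes had at least 2 more. Genes on 1 fragment share its contacts and are not independent. The fragments with the largest excess were Mroh2a, Ybx3, Ywhaq, H2ac15 with H2bc15, the chromosome 16 fragment and H2ac13 with H2bc13. Ywhaq, a 14-3-3 adaptor protein, had 0 contacts over 1 Mb in HPC and 25 in Ery Luc, all 3.65 Mb or more away and best scored, at 14.9, with Odc1. Fragments with fewer in Ery Luc had small differences: Nnt had 9 and 5, Dnajc21 4 and 1, Hyls1 10 and 7, and a fragment nearest to Cd163 8 and 4, beside the 2 chromosome 6 fragments inside Ybx3 and Klre1 given above.

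Between Ery Luc and Ery shStag2 differences ran both ways, and this comparison shares the Ery Luc list with the one above. Of 6945 genes with a contact over 1 Mb in either list, 1182 (17%) had at least 2 more in Ery shStag2 and 589 (8.48%) at least 2 fewer. When only contacts of up to 10 Mb were counted, 852 genes had more and 330 fewer. The largest excess was at the fragment inside Ybx3 (39 more). Chordc1, a co-chaperone of HSP90, followed with 10 in Ery Luc and 46 in Ery shStag2, against 5 in HPC. Of its 61 contacts, 52 ended in the 15 Mb window about 2.9 Mb away, and its best contact was at Cep295, a centriole gene, with 22.1 and 21.2 in the erythroid lists. Cldn12, a claudin of cell junctions, had 1, 4 and 22 contacts in HPC, Ery Luc and Ery shStag2, and its contact with Steap4, a metal reductase, was scored 5.16 in HPC, not listed in Ery Luc and scored 26.2 in Ery shStag2. A fragment inside Prpf39, a splicing factor, had 0, 10 and 31.

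Fewer contacts in Ery shStag2 were found at Ywhaq (25 and 10), Cnot3 (18 and 6), Myc (23 and 13), Sec23a (17 and 8), a fragment inside Klf8 (9 and 0) and one inside Xkr4 (11 and 3). Cnot3 belongs to the deadenylase complex that shortens mRNA tails, Sec23a to the coat of vesicles leaving the endoplasmic reticulum, and Klf8 to the Krüppel-like transcription factors. None of these fragments but Myc and Sec23a had any contact over 1 Mb in HPC. Although it had fewer, Cnot3 had its best score in Ery shStag2, 32.1 with Zfp865 at 1.38 Mb, against 7.22 for the same pair in Ery Luc.

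Myc, the growth-promoting transcription factor, is known in blood cells to be driven by enhancers far downstream of the gene. Its captured fragment (chr15:61984173-61985527) had 17 contacts over 1 Mb in HPC, 23 in Ery Luc and 13 in Ery shStag2. All lay downstream, between 63.6 and 64.06 Mb, in a stretch between Myc and Asap1 whose nearest protein-coding gene is mostly Gsdmc. Leaving aside 1 Ery Luc contact at 2.08 Mb, they ended 1.62 to 1.76 Mb from the fragment. In HPC they made up 17 of its 18 within-chromosome interactions. The best score was 13.2 in HPC, 18.5 in Ery Luc and 20.8 in Ery shStag2.

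The lists shared 9 of the 28 distinct other ends. At these, the median score was 10.7, 11.2 and 11.1, the Ery Luc score was above that of HPC at 4, and the Ery shStag2 score above that of Ery Luc at 3. With scores of 7 or more the contacts numbered 11, 14 and 11, and with 10 or more 6, 8 and 6. Contacts scored under 7 numbered 6, 9 and 2.

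**Figure D5:**
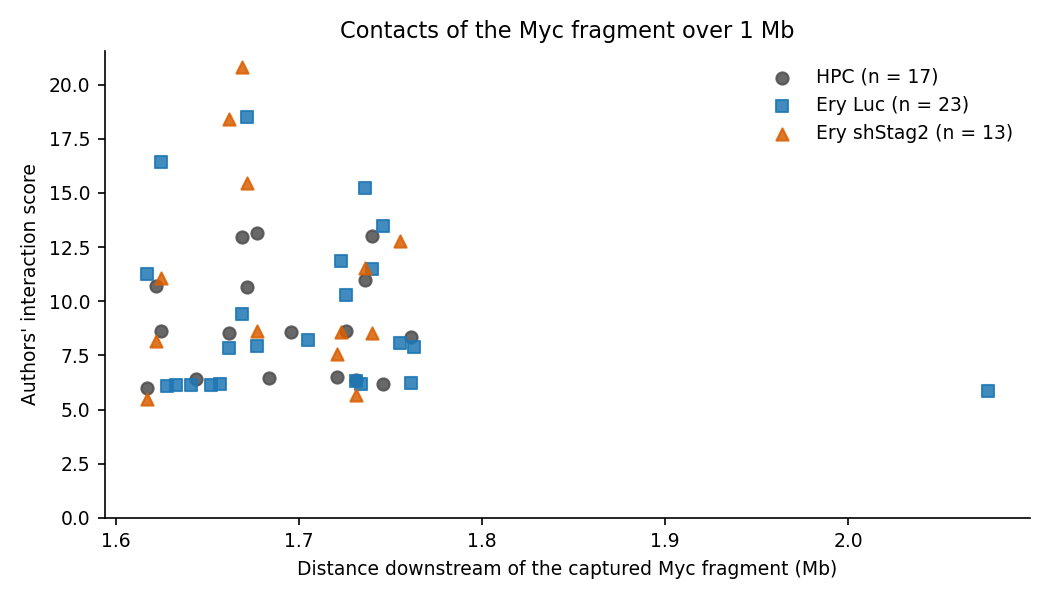
Authors' score of each contact of the Myc fragment over 1 Mb against its distance downstream (Mb), 1 symbol per contact and list. The 3 lists overlap between 1.62 and 1.76 Mb, with the highest score of 20.8 in Ery shStag2 and 1 lone Ery Luc contact at 2.08 Mb.

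Gene families differed widely in how many members had far contacts. Of all 16720 genes on a captured fragment, 3.82% had a contact over 1 Mb in HPC, 27.5% in Ery Luc and 28.5% in Ery shStag2. Among 58 histone genes the counts were 41, 46 and 45. From HPC to Ery Luc, 36 of 46 histone genes had at least 2 more and none at least 2 fewer, and from Ery Luc to Ery shStag2 34 of 48 had more and 1 had fewer, with median differences of 6 and 5.5 contacts. Over all genes, 31.2% had more and 0.423% fewer in the first comparison, 17% and 8.48% in the second, and the median differences were 1 and 0.

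Olfactory receptor genes had contacts in 34, 284 and 308 of 799 members, and zinc finger genes in 14, 78 and 81 of 257. These were 4.26%, 35.5% and 38.5% of the olfactory and 5.45%, 30.4% and 31.5% of the zinc finger genes. From Ery Luc to Ery shStag2, 60 of 427 olfactory genes had at least 2 more and 39 at least 2 fewer, and 21 and 14 of 107 zinc finger genes. Over all genes 17% had more and 8.48% fewer. Olfr556 on chromosome 7 had 3, 14 and 25, and Olfr1176 on chromosome 2 had 8, 16 and 9. Zfp184 and Zfp322a, which lie within the histone locus, had 15, 14 and 31 and 9, 15 and 23. Of 75 ribosomal protein genes, 9, 29 and 26 had contacts (12%, 38.7% and 34.7%, against 3.82%, 27.5% and 28.5% of all genes). Rpl37, of the large subunit, stood out with 7, 30 and 40, most of them about 1.1 Mb away, and its best partners were Oxct1, Rictor and Fbxo4.

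Erythroid genes had contacts in 4, 14 and 16 of 43 (9.30%, 32.6% and 37.2%). Of 14 with a contact in HPC or Ery Luc, 8 had at least 2 more in Ery Luc and none fewer, against 31.2% and 0.423% of all genes. From Ery Luc to Ery shStag2, 3 of 20 had more and 3 had fewer, against 17% and 8.48% of all genes. Alad, the second enzyme of heme synthesis, had 0, 15 and 12 contacts, with a median distance of 37.3 Mb in Ery Luc and 47.0 Mb in Ery shStag2. Its best scored contact in each erythroid list, at 10.4 and 10.5, was not listed in the other. Tal1, a regulator of blood stem cells and red cells, had 1, 5 and 6, at median distances of 12.4 and 30.1 Mb in the erythroid lists.

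Other erythroid genes had partners at shorter range. Bcl11a, the repressor of fetal globin, had 2, 5 and 6, and its contact of 1.22 Mb towards Fancl was scored 9.17, 9.04 and 11.8. Cpox, which acts later in heme synthesis than Alad, had 1, 1 and 6, of which 1, at Cmss1, was in every list with scores of 8.6, 7.77 and 8.65. Hbb-bh1, an embryonic beta-globin gene, had 0, 6 and 6, and the strongest in Ery Luc joined it to Olfr556 over 1.17 Mb, with 8.16 in Ery Luc and 7.64 in Ery shStag2.

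The other lists were small in numbers, and their shares are set beside the 3.82%, 27.5% and 28.5% of all genes. Stem and progenitor genes had contacts in 4, 8 and 10 of 27 members (14.8%, 29.6% and 37.0%). Apart from Myc no member exceeded 3 in any list: Meis1, a homeobox factor of stem cells, had 1, 0 and 3, and Hlf, a factor of stem cells, 0, 2 and 1. Myeloid, mast cell and megakaryocyte genes had contacts in 2, 12 and 10 of 30 (6.67%, 40% and 33.3%), with Cpa3, a mast cell protease, at 1, 1 and 7. Its best partner was Tbl1xr1, a corepressor subunit, in each list, at 5.24, 5.97 and 11.7, through different fragments. Developmental transcription factors, often silenced by Polycomb, had contacts in 4, 10 and 17 of 73 (5.48%, 13.7% and 23.3%). In both erythroid lists this was below the share of all genes. Dlx5 had 3, 0 and 4, and Hoxa3 0, 2 and 4, with best scores of 13.3 and 14.2 in Ery shStag2. The Dlx5 contacts spanned 1.016 to 1.029 Mb and those of Hoxa3 1.001 to 1.047 Mb. These lie just past the threshold of 1 Mb, and contacts under it were not counted.

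Genes of cohesin and its partners had contacts in 1, 4 and 5 of 17 (5.88%, 23.5% and 29.4%), against 3.82%, 27.5% and 28.5% of all genes. Wapl, which releases cohesin from DNA, had 1, 4 and 5, and Pds5b, a regulator of cohesin, 0, 0 and 3. The Pds5b contacts spanned 1.016 to 1.027 Mb, just past the threshold. Esco1, an acetyltransferase of cohesin, had 0, 1 and 3.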

How the data were processed

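Promoter capture Hi-C was deposited for 6 HPC-7 libraries as 3 lists, each made by the authors from 2 pooled libraries, per the labels. A line holds 2 HindIII fragments in mm10 coordinates, per the submitters' processing notes, and the authors' interaction score; which program called them is not given in the sources used here. Deposited scores began at 5. Distances were taken between fragment midpoints and contacts over 1 Mb kept. Captured fragments were counted in either column. Lists shared a contact when the unordered pair of fragments was identical. Genes were placed by their start or end (RefSeq, GRCm38.p6, 21900 protein-coding genes). Shares have exact 95% Clopper-Pearson intervals (SciPy 1.17.1, pandas 2.3.3, Python 3.11.15), for counting error only. No test compares lists. Fragments and genes were named by rank: the 8 with most contacts per list and in all lists, 5 highest scores and 3 greatest distances per list, the 6 largest differences each way, 5 other ends per list, 8 window pairs, and per gene list 4 members with most contacts, Myc and members that differ by 4 or more. Examples among the latter were chosen after their values were seen. The 9 gene lists and all members were chosen with earlier results of these data known. RNA-seq tables were not used here. The counting was checked on simulated data.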

Additional observations from a re-analysis of the deposited data

How the results depend on the processing

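No paired analysis was possible because each list pools its 2 libraries and no result comes from a test. The share over 1 Mb was lowest in HPC and highest in Ery shStag2 under each setting tried. For Ery Luc it was 5.55% at scores of 7 or more, 5.26% at 10 or more, 5.78% with lists cut to 50000, 6.72% without the 10 fragments with most contacts and 5.89% for captured fragments of all 3 lists; for Ery shStag2 7.42%, 7.77%, 7.51%, 8.39% and 7.44%; for HPC 1.40% at 10 or more and 0.909% without the 10 fragments. At scores of 7 or more, 10 or more, and over 2 Mb the contacts numbered 543, 227 and 126 for HPC, 2363, 711 and 4257 for Ery Luc, and 3411, 1159 and 5038 for Ery shStag2. Within 25 kb, at scores of 10 or more, and without the 10 fragments, the share of HPC found in Ery Luc was 78.8%, 81.1% and 34.8%, of Ery Luc in HPC 21.1%, 38.8% and 4.84%, of Ery Luc in Ery shStag2 37.0%, 65.0% and 13.1%, and of Ery shStag2 in Ery Luc 36.7%, 49.7% and 10.1%. The 10 fragments held 34.8% of HPC contacts at scores of 7 or more, 39.7% over 2 Mb and 19% with the capture column alone, a setting added after seeing the data; the values were 12.6% and 4.68% for Ery Luc and 11.3% and 4.85% for Ery shStag2 at scores of 7 or more and by the capture column. Genes with more contacts in Ery Luc than HPC numbered 398 with a difference of 4 or more, 342 at scores of 7 or more and 913 up to 10 Mb (added later), and genes with fewer 1 and 6 under the first pair of settings. From Ery Luc to Ery shStag2, 325 and 411 genes had more and 66 and 122 fewer, and up to 10 Mb 852 had more and 330 fewer. The causes were not tested, beyond that stricter settings keep fewer contacts. Depth is unknown, and a contact missing from a list was not shown to be absent from the cells.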
